A study of Mus musculus with 60 samples.

Results

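The genes described here are 34 mouse p53 target genes, taken as a named list, with Trp53 itself and its regulator Mdm2 among them. The list was chosen with earlier results of these data known, so that shares of the list set beside those of all features are descriptive. All 34 passed the rule of at least 100 counts summed over all libraries, out of 55487 genes and 1146 repeat subfamilies counted in the series. RNA was sequenced from E14JU mouse embryonic stem cells (mESCs) in which the polymerase epsilon subunit POLE4, which passes parental histones to the leading strand, carries a dTAG degron at its own locus. Ctrl cells received DMSO and dPOLE4 cells received dTAG, the degrader of the tagged protein. Both treatments were also given to a line that carries, besides the degron, the MCM2-2A mutation of the histone-binding domain of the replicative helicase subunit MCM2, named Ctrl MCM2-2A and dPOLE4 MCM2-2A. After 24 h of DMSO or dTAG in serum with LIF, some cells were collected (T0). The others were moved to medium with retinoic acid (RA) and without LIF and collected at 12, 24 or 60 h (T12, T24, T60). RA, the withdrawal of LIF and the added time in culture cannot be told apart in comparisons with T0. A separate experiment held the same 4 kinds of cells after 96 h of DMSO or dTAG without RA. Every one of the 20 groups had 3 libraries, 60 in all, and every cell, the controls included, carries the POLE4 degron. Each genotype is a single derived line (the MCM2-2A cells are labelled clone 2), so that the mutation, the clone and its history cannot be told apart where the lines are compared.

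The protein p53, encoded by Trp53, is a transcription factor that is held low by the ubiquitin ligase MDM2 and is stabilised when DNA is damaged or replication is disturbed. It binds paired copies of a short consensus unit and raises transcription of genes for cell cycle arrest (Cdkn1a, which encodes the kinase inhibitor p21), apoptosis (Bax, Bbc3, Pmaip1), DNA repair (Ddb2, Polk) and its own restraint (Mdm2). Mouse embryonic stem cells hold abundant p53 and cycle with a short G1 phase, and p53 activity in them is also linked to the exit from pluripotency. The list was split by role into p53 and its feedback (5 genes), cell cycle (5), apoptosis (13), DNA repair (5), and stress and metabolism (6).

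Library totals ran from 10461077 to 46609151 counts in the RA experiment (median 19752626, 48 libraries) and from 7126100 to 23598266 at 96 h (12 libraries), and the 34 genes together held between 27994 and 163888 reads per library. Within every group the libraries resembled each other, with a mean correlation to group mates of at least 0.987 across genes. The dTAG degrader acts on protein, and Pole4 RNA was accordingly no check of depletion: at T0 it was 50.4 to 54.9 CPM (counts scaled to the library total) in Ctrl and 46.7 to 55.4 in dPOLE4. Pole4 RNA was lower in the MCM2-2A line, at 32.1 to 34.2 CPM in Ctrl MCM2-2A and 28.3 to 34.2 in dPOLE4 MCM2-2A at T0. Gene counts do not resolve the MCM2-2A mutation either, and Mcm2 RNA at T0 was 487 to 509 CPM in Ctrl and 288 to 350 in Ctrl MCM2-2A. Pluripotency markers had the levels of stem cells at T0 in Ctrl (summed CPM of 6 markers 2614 to 2724, Pou5f1 847 ± 20.2, SD, n = 3) and fell over RA to 137 to 164 at T60. A gene is called differentially expressed (DE) here when the adjusted p is below 0.01 and the log2 fold change exceeds 0.58 in size, and a weaker call at adjusted p below 0.05 and any fold is given beside it. All p-values are from edgeR's quasi-likelihood test across all features with Benjamini-Hochberg adjustment.

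The start regions of 4 of these genes show how their sequences differ. From RefSeq (GRCm38.p6) 38 windows were used, from 250 bases before to 50 after a transcript start, for 27 of the 34 genes. The 10-letter p53 consensus unit, which is its own reverse complement and so was read on both strands at once, occurred without mismatch in 11 of these windows (28.9%) against 8.36% of all 32851 windows in the table. Overlapping windows of Aen share the same unit. Counted by gene, 10 of 27 (37%) held a unit, against 9.55% of all genes with a window. A full site of 20 letters, meaning adjoining units with at most 1 mismatch and so overlapping them, occurred in 3 windows (7.89%), those of Cdkn1a, Ccng1 and Gtse1, against 0.0883% of all windows. Cdkn1a, Ccng1 and Mdm2 are printed because they hold such letters. Btg2, DE at more times on depletion than any other, is printed because its window holds no exact unit and no full site. Single units with a mismatch were not counted, and sites outside the windows were not sought for any gene. Capitals mark the consensus unit or the full site.
Cdkn1a, chr17:29090729-29091028, plus strand: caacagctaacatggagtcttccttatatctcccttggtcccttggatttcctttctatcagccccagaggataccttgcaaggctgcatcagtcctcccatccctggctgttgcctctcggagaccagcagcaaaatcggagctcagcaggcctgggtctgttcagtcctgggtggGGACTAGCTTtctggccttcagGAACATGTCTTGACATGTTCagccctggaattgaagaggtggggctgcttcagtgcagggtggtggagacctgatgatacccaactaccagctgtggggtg
Ccng1, chr11:40755237-40755536, minus strand: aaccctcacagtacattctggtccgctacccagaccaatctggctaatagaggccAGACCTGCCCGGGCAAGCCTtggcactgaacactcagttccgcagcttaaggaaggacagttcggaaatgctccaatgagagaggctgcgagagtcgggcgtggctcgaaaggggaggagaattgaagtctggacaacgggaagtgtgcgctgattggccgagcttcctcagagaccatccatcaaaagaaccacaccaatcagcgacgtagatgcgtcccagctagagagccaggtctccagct
Mdm2, chr10:117710709-117711008, minus strand: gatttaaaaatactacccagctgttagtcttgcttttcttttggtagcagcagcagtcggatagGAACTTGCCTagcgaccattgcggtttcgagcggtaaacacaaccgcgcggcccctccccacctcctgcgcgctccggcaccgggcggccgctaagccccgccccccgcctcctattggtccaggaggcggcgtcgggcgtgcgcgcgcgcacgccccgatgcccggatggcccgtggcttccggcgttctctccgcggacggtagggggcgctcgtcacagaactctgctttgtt
Btg2, chr1:134079106-134079405, minus strand: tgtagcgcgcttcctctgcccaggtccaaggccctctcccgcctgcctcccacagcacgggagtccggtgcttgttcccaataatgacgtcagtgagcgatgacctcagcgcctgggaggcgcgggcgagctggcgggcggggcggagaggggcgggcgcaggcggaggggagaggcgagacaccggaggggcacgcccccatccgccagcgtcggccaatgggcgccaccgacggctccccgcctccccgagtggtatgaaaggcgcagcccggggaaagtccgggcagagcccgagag
The Cdkn1a window belongs to the more upstream of its 2 annotated starts, and its full site begins 51 bases before that start, with a further unit at -73. In Ccng1 the full site begins at -195, and in Mdm2 a single unit lies at -186. Single units were also found in windows of Trp53 (-75), Bax (-201), Ei24 (-10), Sesn1 (-173), Polk (-231), Aen and Gtse1. These matches are letters in a window, and binding was not measured in these libraries. The windows of Trp53inp1, Zmat3, Pmaip1, Perp, Rrm2b, Tnfrsf10b and Ddb2 were not used here.

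In DMSO-treated stem cells (Ctrl T0) Trp53 was the most abundant of the 34 transcripts. On the scale of CPM per kilobase of exon, Trp53 stood at 135 ± 6.04 (SD, n = 3), followed by Ccng1, a cyclin that recruits a phosphatase to MDM2, at 80.8 ± 7.25. Gtse1, which restrains p53 in G2, followed at 71.7 ± 0.690 and the pore-forming BAX at 55.9 ± 2.22. Mdm2 was at 28.7 ± 0.769 and overlapped its neighbour Ak1 (27.3 ± 0.676). From Aen (24.8 ± 1.82) down to Btg2 (11.7 ± 1.42) each gene overlapped the next, so that Cdkn1a at 12.8 ± 0.939 could not be ordered against Zmat3 or Btg2. At the low end lay Pmaip1 (3.36 ± 0.349), Ephx1 (2.94 ± 0.0443), the stress cytokine Gdf15 (1.46 ± 0.449) and the ribonucleotide reductase subunit Rrm2b (0.908 ± 0.0481), and the death receptor gene Fas was below all of these.

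The comparison of dPOLE4 with Ctrl asks whether dTAG treatment, which depletes POLE4, changes these genes in the line that carries the degron alone. The parts of reduced histone recycling, other effects of depleting a polymerase subunit and dTAG itself were not tested with these libraries in either line. By other assays the paper reports that POLE4 depletion left EdU incorporation, cell cycle distribution, division rate and DNA damage signalling unaffected. The paper reports moderate asymmetry of parental histones between the strands after short depletion, and proposes that degradation was probably incomplete. No p53 target was DE in dPOLE4 against Ctrl at T0, T12, T24, T60 or 96 h by edgeR, and none was by DESeq2. Of all features tested the DE share was 0% at T0, 0% at T12, 0% at T24, 0.199% at T60 and 0% at 96 h. At an unadjusted p below 0.05 the number of p53 targets was 6, 10, 7, 15 and 6 at these times, out of 33 or 34 tested, where 11.6%, 6.51%, 7.75%, 14.4% and 12.4% of all features had one. The median log2 fold change of the list was 0.04 at T0, 0.06 at T12, 0.10 at T24 and 0.17 at T60, where 31 of 33 tested genes and 50.4% of all features were above 0, and 0.10 at 96 h. The medians over all features were within 0.01 of 0. In the same libraries at T60 the summed CPM of the fibroblast markers was 431 to 567 in Ctrl and 339 to 356 in dPOLE4, that of the primitive endoderm markers 280 to 349 and 227 to 273, and that of the trophoblast markers 729 to 875 and 897 to 949, while the neural, pluripotency and two-cell-like sums overlapped. None of the markers in these lists was at 0 in either group at T60. Fibroblast sums were also apart at T0 (53.8 to 61.1 and 63.7 to 68.2) and T24 (81.1 to 87.5 and 67.5 to 79.8). Trophoblast sums were apart at T24 (245 to 257 and 265 to 293). Krt8 carried most of that rise (means of 157 and 188 CPM), and Tfap2c rose less (66.8 and 73.3). Cdx2, Eomes and Elf5 were not higher at T24. At T60 Krt8 made up most of the trophoblast sums (means of 783 and 876 CPM), and Cdx2 was not higher. Neural and RA response sums were apart at T12 (353 to 419 and 323.5 to 337) and 96 h (52.0 to 69.8 and 41.4 to 51.0). The part of these lists in the shifts was not tested.

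Mdm2 was the single p53 target past the weaker threshold in these cells, and it was so at T60, where 1.52% of all features were. Its CPM at T60 was 164, 171 and 163 in Ctrl and 196, 188 and 199 in dPOLE4, a log2 difference of 0.24 (SE 0.0556, adjusted p = 0.0384). The groups did not overlap, and they did not overlap at T0 (149, 147 and 141 against 176, 156 and 159), T12 (162, 157 and 161 against 183, 171 and 177) or T24 (174, 167 and 166 against 200.0, 189.6 and 196) either, with adjusted p of 0.381, 0.703 and 0.258. Trp53 had 522, 548 and 571 CPM in Ctrl at T0 and 514, 508 and 565 in dPOLE4, and Cdkn1a had 49.3, 42.9 and 44.4 and 54.3, 46.7 and 49.4, overlapping in both genes. Libraries with the same replicate number deviated together at T0, T24 and 96 h. With the replicate as a block, Btg2 (0.27, adjusted p = 0.0266) and Phlda3 (0.29, adjusted p = 0.0278) passed the weaker threshold at T0, where 0.691% of all features rose. No p53 target passed it at T24 under the block. At 96 h 7 of 33 passed upwards under the block (4.51% of all features), among them Mdm2 (0.20, adjusted p = 0.0136), Cdkn1a (0.28, adjusted p = 0.00294) and Btg2 (0.35, adjusted p = 0.00127).

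In the MCM2-2A line, where lagging-strand recycling is impaired as well, depletion of POLE4 raised several p53 targets and lowered none at either threshold without a replicate block. DE genes were 1 of 34 at T0, 3 of 33 at T12, 1 of 34 at T24, 2 of 34 at T60 and 0 of 34 at 96 h, all higher, where the higher DE calls over all features were 0.022%, 0.205%, 0.526%, 1.08% and 0.195%. At the weaker threshold 5, 12, 9, 8 and 0 were higher, against 0.506%, 1.95%, 3.33%, 4.61% and 0.683% of all features. At 96 h DESeq2 called 1 gene DE, and 5 of 34 had an unadjusted p below 0.05, against 11.6% of all features. The median log2 fold change of the list was 0.24 at T0, 0.25 at T12, 0.20 at T24, 0.19 at T60 and 0.10 at 96 h, with medians over all features within 0.01 of 0. The 96 h median depended on single libraries: it was 0.04 without replicate 2 and 0.01 without replicate 3 of Ctrl MCM2-2A, 0.17 without replicate 1 of Ctrl MCM2-2A and 0.04 without replicate 1 of dPOLE4 MCM2-2A. By role at T12, 3 of 5 feedback genes, 2 of 5 cell cycle genes, 4 of 12 tested apoptosis genes, 2 of 5 repair genes and 1 of 6 stress genes passed the weaker threshold.

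**Figure D1:**
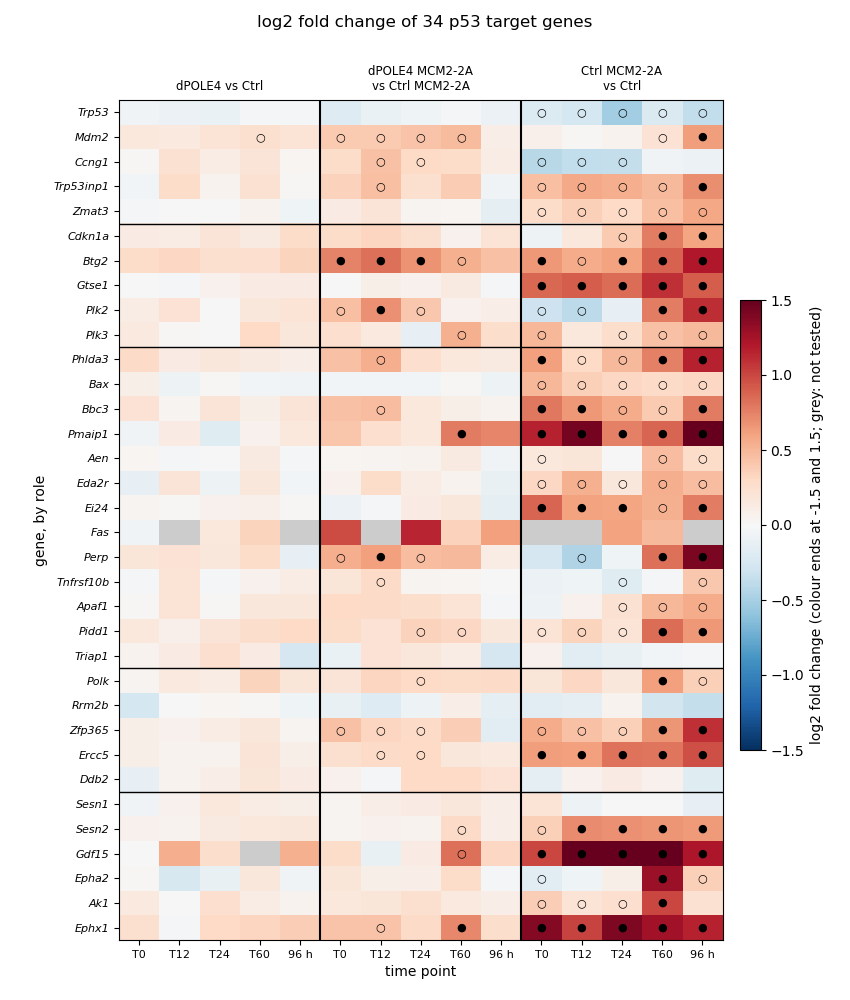
Log2 fold change (colour, scale ending at -1.5 and 1.5) of each of the 34 p53 target genes (rows, grouped by role) at each time (columns), for dPOLE4 against Ctrl, dPOLE4 MCM2-2A against Ctrl MCM2-2A, and Ctrl MCM2-2A against Ctrl. Filled circles mark DE genes, open circles an adjusted p below 0.05 at any fold, and grey a gene that was not tested. The left block holds a single open circle, Mdm2 at T60, while Btg2 carries a filled circle at T0, T12 and T24 in the middle block.

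Btg2 (chr1:134075170-134079120, minus strand, GRCm38), an antiproliferative cofactor of mRNA deadenylation, was DE at 3 of the 5 times. The paper also names Btg2 as up-regulated at T0, among genes reported elsewhere to be repressed by the formative pluripotency factor Zic2. The part of Zic2 in these differences was not tested. At T0 its CPM was 52.2, 49.4 and 50.5 in Ctrl MCM2-2A and 90.4, 87.1 and 76.7 in dPOLE4 MCM2-2A, and Btg2 rose by 0.75 (SE 0.0765, adjusted p = 0.00425) on the log2 scale. At T12 the values were 31.5, 32.2 and 34.4 against 55.3, 63.6 and 55.6, a change of 0.83 (SE 0.0726, adjusted p = 2.18e-04). At T24 they were 49.6, 44.5 and 46.4 against 78.2, 75.1 and 69.9, a change of 0.67 (SE 0.0714, adjusted p = 1.03e-04). All 3 depleted libraries were above all 3 controls at each of these times. At T60 Btg2 had 116, 122 and 129.9 CPM against 170.1, 182 and 181, a change of 0.53 (SE 0.0673, adjusted p = 9.36e-04) that was below the fold required for DE. The DE call at T0 was lost without replicate 1, 2 or 3 of Ctrl MCM2-2A T0 (adjusted p = 0.019, 0.0372 and 0.0203 by edgeR) or replicate 2 of dPOLE4 MCM2-2A T0 (adjusted p = 0.0697), while the log2 fold change stayed between 0.73 and 0.76 over those 4 omissions.

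Among the other cell cycle genes, Plk2 (chr13:110395046-110400844), a stress-induced polo-like kinase, was DE at T12 with 41.1, 48.3 and 48.5 CPM in Ctrl MCM2-2A and 69.3, 75.01 and 76.97 in dPOLE4 MCM2-2A (log2 fold change 0.69, SE 0.0765, adjusted p = 0.00102). Its libraries were also apart at T0 (60.7, 51.2 and 62.3 against 75.4, 78.4 and 84.1, log2 fold change 0.46, adjusted p = 0.0402), and at T60 they overlapped (179.8, 219 and 212 against 195, 202.8 and 239). Cdkn1a passed neither threshold at any time without the replicate block. Its CPM at T0 was 46.8, 45.3 and 39.6 in Ctrl MCM2-2A and 53.1, 53.6 and 50.99 in dPOLE4 MCM2-2A, and at T12 it was 35.99, 30.9 and 35.9 and 41.2, 46.9 and 40.4 (log2 fold change 0.32, SE 0.0822, adjusted p = 0.0545). Both pairs of groups were apart, whereas at T60 the groups overlapped at 130.0, 140.1 and 153 and 143, 146 and 153 (log2 fold change 0.06, SE 0.0719, adjusted p = 0.663). Plk3, a kinase of the same family, passed the weaker threshold at T60 (log2 fold change 0.53, SE 0.133, adjusted p = 0.0293), and Gtse1 passed at no time (0.14 at T60).

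In the feedback group Mdm2 passed the weaker threshold at all 4 times of the RA experiment. It had 155, 167 and 160.5 CPM in Ctrl MCM2-2A and 196, 221 and 217 in dPOLE4 MCM2-2A at T12 (log2 fold change 0.39, SE 0.0610, adjusted p = 0.00614). At T24 the values were 182, 165 and 171 and 243, 222 and 230.2 (log2 fold change 0.43, SE 0.0637, adjusted p = 0.00119), and at T60 they were 175, 208 and 193 and 249, 262 and 290.3 (log2 fold change 0.47, SE 0.0813, adjusted p = 0.00451). The groups were apart at each time, including T0 (162, 149 and 156 against 219, 187 and 204), and the size of the difference was below that required for DE. Ccng1 passed the weaker threshold at T12 (log2 fold change 0.44, SE 0.0768, adjusted p = 0.0107) and T24 (log2 fold change 0.30, SE 0.0770, adjusted p = 0.0328), and Trp53inp1, a regulator of autophagy and p53 phosphorylation, did so at T12 (log2 fold change 0.45, SE 0.0998, adjusted p = 0.0326). Trp53 itself was not raised: at T0 it had 521, 465 and 450.1 CPM in Ctrl MCM2-2A and 406, 431 and 411 in dPOLE4 MCM2-2A (log2 fold change -0.19, SE 0.0750, adjusted p = 0.284), and at T60 190.1, 196 and 193 and 181, 199 and 186 (log2 fold change -0.03, SE 0.0636, adjusted p = 0.809).

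The apoptosis group moved in part. Perp (chr10:18845020-18857073), a membrane effector of p53-dependent death, was DE at T12 with 31.02, 30.97 and 26.6 CPM in Ctrl MCM2-2A and 43.2, 45.7 and 47.02 in dPOLE4 MCM2-2A (log2 fold change 0.61, SE 0.0781, adjusted p = 0.00201). It passed the weaker threshold at T0 (33.7, 37.1 and 33.4 against 47.3, 47.5 and 55.6, log2 fold change 0.55, adjusted p = 0.0249) and T24 (log2 fold change 0.47, adjusted p = 0.00329), with the libraries apart at each. Pmaip1, which encodes the BH3-only protein NOXA, was DE at T60 with 13.7, 13.8 and 13.1 CPM against 22.2, 21.05 and 26.6 (log2 fold change 0.78, SE 0.106, adjusted p = 0.00136). At T0 its libraries were apart too, with 22.2, 18.5 and 20.7 against 27.1, 24.8 and 29.4, and that difference did not pass (log2 fold change 0.42, SE 0.0968, adjusted p = 0.0801). Bbc3, which encodes the BH3-only protein PUMA, rose at T12 (log2 fold change 0.46, SE 0.111, adjusted p = 0.0419), as did Phlda3, an inhibitor of AKT at the membrane (log2 fold change 0.54, SE 0.0926, adjusted p = 0.00993), and the death receptor gene Tnfrsf10b (log2 fold change 0.29, SE 0.0609, adjusted p = 0.0273). Pidd1, which encodes the scaffold of the caspase-2 complex, passed at T24 (log2 fold change 0.34, SE 0.0929, adjusted p = 0.0402) and T60 (log2 fold change 0.31, SE 0.0867, adjusted p = 0.0462). Bax did not pass, with log2 fold changes of -0.04 at T0 and 0.02 at T60. Fas was not tested at T12 and did not pass elsewhere.

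Of the repair genes, Zfp365, needed for replication of fragile sites, passed the weaker threshold at T0 (log2 fold change 0.43, SE 0.0677, adjusted p = 0.0208), T12 (log2 fold change 0.32, SE 0.0727, adjusted p = 0.0353) and T24 (log2 fold change 0.28, SE 0.0725, adjusted p = 0.0319). The excision repair nuclease gene Ercc5 passed at T12 (log2 fold change 0.28, SE 0.0610, adjusted p = 0.0285) and T24 (log2 fold change 0.30, SE 0.0632, adjusted p = 0.0117), and the lesion-bypass polymerase gene Polk at T24 (log2 fold change 0.30, SE 0.0797, adjusted p = 0.0384). Ddb2 and Rrm2b did not pass at any time. Among stress and metabolism genes Ephx1 (chr1:180976210-181020904), an epoxide hydrolase, was DE at T60 with 10.7, 9.47 and 8.33 CPM in Ctrl MCM2-2A and 14.99, 16.9 and 15.1 in dPOLE4 MCM2-2A (log2 fold change 0.72, SE 0.116, adjusted p = 0.00328), and the groups were apart. Gdf15 (log2 fold change 0.83, SE 0.192, adjusted p = 0.0207) and Sesn2, an inhibitor of mTORC1 signalling (log2 fold change 0.29, SE 0.0707, adjusted p = 0.0273), passed the weaker threshold at T60.

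**Figure D2:**
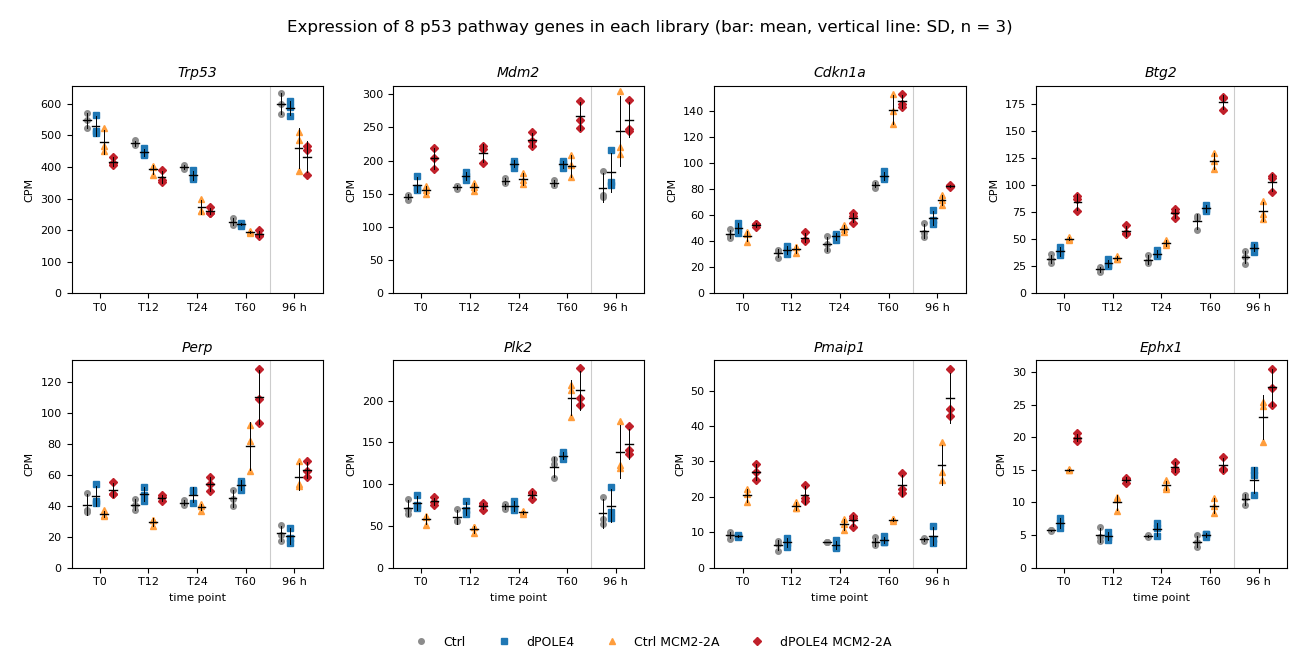
CPM (vertical axis, from 0) of single p53 target genes in each library at T0, T12, T24, T60 and 96 h, coloured by group, with points for libraries and bars for group means. Btg2 in dPOLE4 MCM2-2A lies above the other 3 groups at T0, T12, T24, T60 and 96 h, and Trp53 falls with RA time in all 4 groups.

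Single libraries bore on the DE counts at T12 and T60. Without replicate 2 of dPOLE4 MCM2-2A T12, 1 gene was DE (Btg2), and Perp also fell below the DE thresholds without replicate 1 or 3 of Ctrl MCM2-2A T12 or replicate 3 of dPOLE4 MCM2-2A T12. At T60 the count was 1 without replicate 2 of Ctrl MCM2-2A or replicate 2 of dPOLE4 MCM2-2A, and 0 without replicate 3 of Ctrl MCM2-2A. At T0, where the replicate numbers paired the libraries, 17 of 34 genes passed the weaker threshold upwards with the replicate as a block, against 5.24% of all features. Trp53 then passed downwards (-0.19, adjusted p = 0.0384), and Cdkn1a (0.28, adjusted p = 0.00717), Phlda3 (0.44, adjusted p = 9.76e-05) and Bbc3 (0.44, adjusted p = 2.86e-04) were among those that passed upwards.

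Markers of several cell states also differed between the same libraries, in more lists at the later times. Of 6 lists of markers, 1 did not overlap between the groups at T0, 2 at T12, 4 at T24 and 5 at T60. At T60 the summed CPM of 6 pluripotency markers was 305 to 409 in Ctrl MCM2-2A and 416 to 546 in dPOLE4 MCM2-2A, that of 5 fibroblast markers 226 to 251 and 112 to 129, that of 5 primitive endoderm markers 511 to 564 and 401 to 446, that of 7 neural and RA response markers 618 to 640 and 535 to 565, and that of 5 two-cell-like markers 148 to 196 and 216 to 269. The neural and RA response sums were also lower in dPOLE4 MCM2-2A at T12 (245 to 291 and 189 to 214) and T24 (414 to 442 and 322 to 348), and the trophoblast sums were higher at T0 (168 to 186 and 199 to 215), T12 (134 to 151 and 159 to 199.6) and T24 (187 to 208 and 225 to 251). Krt8 carried most of the trophoblast rise at T24 (means of 121 and 158 CPM), while Tfap2c was not higher (55.7 and 54.8). Fibroblast markers (41.2 to 45.7 and 37.2 to 37.7) and primitive endoderm markers (86.1 to 95.5 and 80.2 to 83.9) were lower at T24. None of these markers was at 0 in all libraries of either group. Their part in the p53 target differences at T0, T12, T24 or T60 was not tested, and in bulk libraries fewer cells with a transcript and less transcript per cell cannot be told apart. At T0 the sums of the 5 lists other than trophoblast overlapped, with pluripotency markers at 2646 to 2998 and 2506 to 2754.

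Whether POLE4 depletion acted differently with and without the MCM2-2A mutation was tested as the difference of the effects. No p53 target passed at either threshold by edgeR at T0, T12, T24, T60 or 96 h, where 0.00526%, 0.0264%, 0.0351%, 0.1% and 0% of all features were DE. The shares at the weaker threshold were 0.0105%, 0.0687%, 0.0952%, 0.543% and 0%. At an unadjusted p below 0.05 the counts were 9, 11, 6, 3 and 1, against 5.48%, 7.43%, 8.94%, 10.2% and 3.85% of all features, so that those at T60 and 96 h were no higher than the background. DESeq2 gave no DE gene, and at the weaker threshold it called Btg2 at T12 (0.52, adjusted p = 0.0498), Plk2 at T24 (0.38, adjusted p = 0.0292) and Pmaip1 at T60 (0.72, adjusted p = 0.0388). With the replicate block, Btg2 (0.42, adjusted p = 0.0195) and Plk2 (0.38, adjusted p = 0.0155) passed it at T24. The Btg2 difference was 0.48 (95% interval 0.20 to 0.76, adjusted p = 0.632) at T0, 0.53 (95% interval 0.26 to 0.80, adjusted p = 0.199) at T12 and 0.42 (95% interval 0.15 to 0.68, adjusted p = 0.277) at T24. At T60 the Pmaip1 difference was 0.72 (95% interval 0.34 to 1.10, adjusted p = 0.0909) and that of Ephx1 0.40 (95% interval -0.04 to 0.85, adjusted p = 0.546). At T12 Perp differed by 0.40 (95% interval 0.15 to 0.66, adjusted p = 0.344) and Plk2 by 0.48 (95% interval 0.19 to 0.76, adjusted p = 0.340). The unadjusted intervals of Btg2, Pmaip1, Perp and Plk2 at these times lay above 0, and by edgeR without the block none passed after adjustment over all features. A difference in the response of Btg2, Plk2 or Pmaip1 thus depended on the test used, and none reached the DE thresholds.

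After 96 h of depletion no p53 target passed in the MCM2-2A line by edgeR with the count filter and without the replicate block, and Pmaip1 came closest. Pmaip1 had 35.5, 24.9 and 26.9 CPM in Ctrl MCM2-2A and 56.1, 42.9 and 44.7 in dPOLE4 MCM2-2A, with the groups apart and a log2 difference of 0.74 (SE 0.153, adjusted p = 0.0553). Btg2 had 69.2, 85.8 and 73.5 against 94.1, 106 and 108 (log2 fold change 0.44, SE 0.0942, adjusted p = 0.0647), and Cdkn1a 75.4, 71.7 and 67.6 against 81.9, 83.2 and 82.4 (log2 fold change 0.21, SE 0.0780, adjusted p = 0.311). Mdm2 overlapped at 304, 220.0 and 209 and 292, 248 and 245, with replicate 1 the highest in each group. The replicate numbers paired these libraries. With the block, Pmaip1 was DE (0.73, adjusted p = 1.54e-08), and 6 of 34 passed the weaker threshold upwards against 6.49% of all features, while Zmat3 (-0.13, adjusted p = 0.0365) and Zfp365 (-0.16, adjusted p = 0.0356) passed downwards. DESeq2 also called Pmaip1 DE (0.73, adjusted p = 5.64e-04) and Btg2 at the weaker threshold (0.43, adjusted p = 0.0149), and edgeR without the count filter called 1 gene DE. The 5 two-cell-like markers summed to 39.4 to 60.9 CPM in Ctrl MCM2-2A and 114 to 146 in dPOLE4 MCM2-2A at 96 h, and the fibroblast markers to 34.1 to 42.6 and 43.4 to 52.8, while the other 4 lists overlapped. The fibroblast sum rose mostly through Thy1 (means of 18.4 and 27.7 CPM). Col1a1 was nearly level (14.2 and 14.8) and Col1a2 was not higher (1.67 and 1.29). The part of these markers in the 96 h differences was not tested. The 96 h libraries are a separate experiment, and their levels were not set against those of T0.

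The lines also differed in these genes without any depletion. In Ctrl MCM2-2A against Ctrl, 9 of 33 p53 targets were DE at T0, 8 of 33 at T12, 8 of 34 at T24, 16 of 34 at T60 and 17 of 33 at 96 h, all higher. Over all features 9.98%, 7.03%, 9.79%, 8.96% and 9.49% were DE and higher at these times. At the weaker threshold 19, 17, 20, 26 and 26 of them were higher, against 23.7%, 17.3%, 24.3%, 21.6% and 18.2% of all features, and 4, 4, 3, 1 and 1 were lower, against 23.7%, 19.1%, 23.1%, 21.9% and 16.4%. The median log2 fold change of the list was 0.27, 0.30, 0.26, 0.54 and 0.59, with medians over all features within 0.02 of 0. Cell-state markers differed between the lines as well. At T0 the neural and RA response markers summed to 116 to 140 CPM in Ctrl and 51.3 to 59.1 in Ctrl MCM2-2A, trophoblast markers to 254 to 316 and 168 to 186, fibroblast markers to 53.8 to 61.1 and 37.1 to 50.1, primitive endoderm markers to 13.2 to 24.0 and 37.8 to 48.2, and two-cell-like markers to 8.72 to 25.6 and 26.1 to 48.1, with 1 two-cell-like marker, Tcstv1, at 0 in Ctrl. The pluripotency sums overlapped at T0. Within the trophoblast list the mean of Krt8 was 208 CPM in Ctrl and 94.5 in Ctrl MCM2-2A, while Tfap2c had 62.7 and 71.4. Within the fibroblast list Col1a1 had 43.0 and 8.66, while Thy1 went the other way at 3.81 and 26.8. These sums thus followed mostly Krt8 and Col1a1 and did not stand for their whole lists. Of the 6 lists, 5 did not overlap at T0, 5 at T12, 4 at T24, 6 at T60 and 2 at 96 h, the latter being pluripotency (2736 to 2878 and 2474 to 2586) and primitive endoderm (13.7 to 18.1 and 45.7 to 54.3). Their part in the line differences was not tested. This comparison shares the Ctrl MCM2-2A libraries with the depletion comparison above, so a control library that deviates moves both.

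The 6 DE genes with the largest difference at T0 were Ephx1, Pmaip1, Gdf15, Ei24, Gtse1 and Bbc3. Ephx1 had 5.72, 5.64 and 5.81 CPM in Ctrl and 15.1, 14.98 and 14.9 in Ctrl MCM2-2A (log2 fold change 1.37, SE 0.0969, adjusted p = 6.47e-07). Pmaip1 had 10.1, 9.29 and 8.19 and 22.2, 18.5 and 20.7 (log2 fold change 1.15, SE 0.102, adjusted p = 3.37e-06). Both genes were apart by more than the spread within either group. Gdf15 was low and more scattered at 2.72, 3.53 and 1.87 against 6.79, 6.50 and 3.95 (log2 fold change 1.00, SE 0.263, adjusted p = 0.00815), and its DE call was lost without replicate 1 or 3 of Ctrl T0 or replicate 1 or 2 of Ctrl MCM2-2A T0. Ei24, an endoplasmic reticulum protein gene induced by p53, had 82.4, 82.7 and 90.8 against 169, 149 and 157 (log2 fold change 0.88, SE 0.0579, adjusted p = 3.97e-07). Gtse1 had 195, 196 and 198 against 373, 360.0 and 347 (log2 fold change 0.86, SE 0.0463, adjusted p = 1.07e-07), and Bbc3 16.7, 18.01 and 17.4 against 39.3, 27.5 and 24.9 (log2 fold change 0.79, SE 0.135, adjusted p = 5.25e-04). In Bbc3 replicate 1 of Ctrl MCM2-2A stood above its mates, and without it the change was 0.58 and the gene was not DE. Btg2 (without replicate 2 of Ctrl T0) and Phlda3 (without replicate 2 or 3 of Ctrl T0 or replicate 1 of Ctrl MCM2-2A T0) also lost the DE call at T0.

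**Figure D3:**
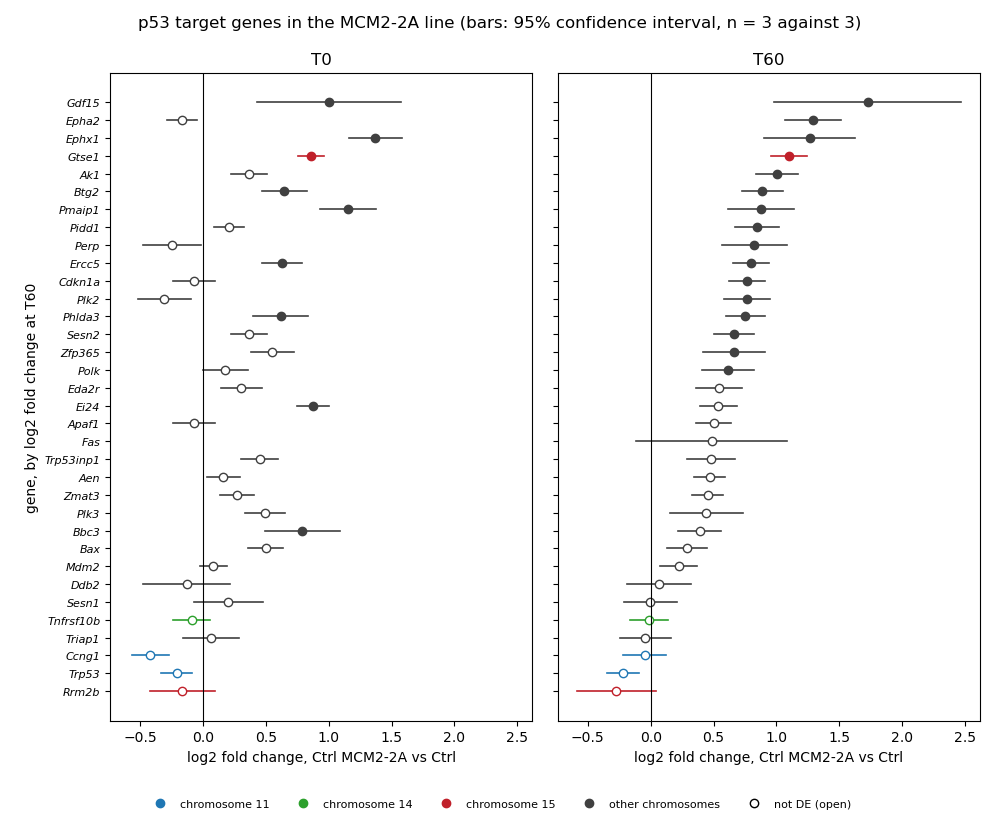
Log2 fold change with 95% intervals (horizontal axis) of the p53 target genes (vertical axis, in order of the value at T60) in Ctrl MCM2-2A against Ctrl, at T0 and at T60. Filled points are DE, and colours mark chromosomes 11, 14 and 15. Ephx1 and Pmaip1 are high at both times, Cdkn1a, Perp, Plk2 and Epha2 lie right of 0 at T60 alone, and Trp53 lies left of 0 at both.

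Mdm2 and Cdkn1a did not pass between the lines at T0. Mdm2 differed by 0.08 (SE 0.0497, adjusted p = 0.202) and Cdkn1a by -0.07 (SE 0.0765, adjusted p = 0.455) between the lines. At T60 Cdkn1a had 84.1, 81.00 and 84.98 CPM in Ctrl and 130.0, 140.1 and 153 in Ctrl MCM2-2A (log2 fold change 0.77, SE 0.0676, adjusted p = 4.12e-07), and Mdm2 164, 171 and 163 and 175, 208 and 193 (log2 fold change 0.22, SE 0.0691, adjusted p = 0.0174). At 96 h Mdm2 was DE (log2 fold change 0.63, SE 0.133, adjusted p = 0.00237) with 185, 146 and 148 CPM against 304, 220.0 and 209, a call that was lost without replicate 2 or 3 of Ctrl 96 h or replicate 1 of Ctrl MCM2-2A 96 h. Cdkn1a was DE at 96 h (log2 fold change 0.59, SE 0.0991, adjusted p = 4.56e-04) by edgeR and fell just below the required fold by DESeq2 (0.57), by edgeR with all 4 groups in the fit (0.575) or with no count filter (0.57), and without replicate 2 or 3 of Ctrl 96 h or replicate 1 of Ctrl MCM2-2A 96 h. Pmaip1 at 96 h had 8.11, 8.45 and 7.55 against 35.5, 24.9 and 26.9 (log2 fold change 1.85, SE 0.145, adjusted p = 1.72e-06).

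Trp53 was lower in the MCM2-2A line at every time at the weaker threshold, with log2 fold changes of -0.21 (adjusted p = 0.00966) at T0, -0.27 (adjusted p = 0.00343) at T12, -0.52 (adjusted p = 4.55e-07) at T24, -0.22 (adjusted p = 0.00751) at T60 and -0.36 (adjusted p = 0.0106) at 96 h. Ccng1 was lower at T0 (log2 fold change -0.42, SE 0.0675, adjusted p = 3.31e-04), T12 (log2 fold change -0.36, SE 0.104, adjusted p = 0.0180) and T24 (log2 fold change -0.36, SE 0.0582, adjusted p = 7.08e-05). Both genes lie on chromosome 11, where the median over 1391 genes was -0.48 at T0 and 80.7% were below 0, and that median was between -0.55 and -0.48 at all 5 times. Gtse1 and Rrm2b lie on chromosome 15, where the median over 679 genes was 0.56 at T0, and Tnfrsf10b lies on chromosome 14, with a median of 0.23. Gtse1 exceeded its chromosome's median, at 0.86, and Rrm2b did not pass (log2 fold change -0.17, SE 0.118, adjusted p = 0.276). The part of these chromosome-wide shifts in the values of the 5 genes was not tested. Without all genes of chromosomes 11, 14 and 15 the DE counts of the list were 8, 7, 7, 15 and 16.

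Under RA the list split, with some p53 targets rising and others falling as the cells left pluripotency. In Ctrl, 2 of 33 were DE and higher at T12 and 1 lower, where 7.29% and 4.04% of all features were, and 2 of 33 were higher and 1 lower at T24, where 13.6% and 8.32% were. At T60 11 of 34 were higher and 7 lower, against 26.9% and 23.8% of all features. Both shares of the list at T60 were near or below those of all features. In dPOLE4 the split was 12 and 7 (25.8% and 22.6% of all features), in Ctrl MCM2-2A 13 and 7 (26.6% and 21.5%), and in dPOLE4 MCM2-2A 12 and 6 (23.1% and 19.4%). At T60 in Ctrl the neural and RA response markers had risen from 116 to 140 CPM in sum at T0 to 656 to 818, and primitive endoderm markers from 13.2 to 24.0 to 280 to 349. These markers moved with each RA difference below, and their part in it was not tested.

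The 6 DE genes with the largest difference at T60 in Ctrl were Gdf15, Epha2, Phlda3, Fas, Trp53 and Ak1. Epha2, an ephrin receptor kinase, fell from 229, 206 and 223 CPM to 60.3, 44.02 and 42.1 (log2 fold change -2.18, SE 0.106, adjusted p = 1.00e-10). Gdf15 fell from 2.72, 3.53 and 1.87 to 0.487, 0.274 and 0.671 (log2 fold change -2.49, SE 0.383, adjusted p = 3.07e-05), and Ak1, an adenylate kinase, from 69.8, 72.8 and 69.8 to 33.4, 31.5 and 28.4 (log2 fold change -1.20, SE 0.0747, adjusted p = 1.49e-09). No library of T60 reached any library of T0 in these genes. Trp53 fell from 522, 548 and 571 at T0 through 484, 467 and 473 at T12 and 400.1, 392 and 407 at T24 to 239, 224 and 217 at T60 (log2 fold change -1.29, SE 0.0614, adjusted p = 7.92e-11). The log2 fold change of Trp53 at T60 was of like size in dPOLE4 (-1.29), Ctrl MCM2-2A (-1.30) and dPOLE4 MCM2-2A (-1.17). Phlda3 rose from 37.6, 31.2 and 30.4 to 108, 87.4 and 94.2 (log2 fold change 1.53, SE 0.0935, adjusted p = 1.27e-09). Fas rose from 0.227, 0.798 and 0.354 to 1.34, 1.64 and 0.863 (log2 fold change 1.47, SE 0.418, adjusted p = 0.00511) at levels of few reads, and was not DE by DESeq2 (adjusted p = 0.0329) or without replicate 1 or 3 of Ctrl T0 or replicate 1 or 2 of Ctrl T60.

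Cdkn1a went down before it went up. It had 49.3, 42.9 and 44.4 CPM at T0, 32.4, 33.3 and 27.1 at T12 (log2 fold change -0.55, SE 0.0885, adjusted p = 4.75e-04) and 84.1, 81.00 and 84.98 at T60 (log2 fold change 0.85, SE 0.0698, adjusted p = 3.44e-08). All 3 libraries of T12 were below, and all 3 of T60 above, those of T0. Mdm2 moved little, by 0.14 (SE 0.0520, adjusted p = 0.0584) at T12, 0.22 (SE 0.0435, adjusted p = 5.83e-04) at T24 and 0.17 (SE 0.0584, adjusted p = 0.0162) at T60. Early DE genes were Sesn1, a relative of Sesn2 (0.83 at T12), Plk3 (0.87 at T12, 0.61 at T24), Phlda3 (0.97 at T24) and Ak1 (-0.61 and -0.83). Plk3 reversed by T60, at -1.15 (SE 0.124, adjusted p = 7.98e-07), and its early call at T24 was lost without replicate 1 of Ctrl T0. Bbc3 (1.14), Btg2 (1.04), Apaf1, the core of the apoptosome (0.83), Ercc5 (0.75), Plk2 (0.74), Tnfrsf10b (0.70), Ccng1 (0.67) and Trp53inp1 (0.61) made up the other genes higher at T60, and Zfp365 (-1.14) and Gtse1 (-0.69) were among those lower.

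**Figure D4:**
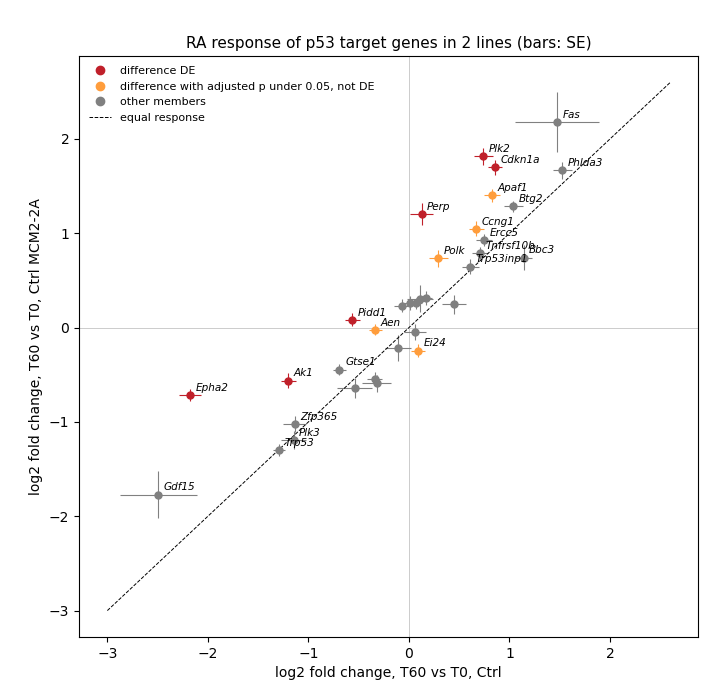
Log2 fold change from T0 to T60 of RA in Ctrl (horizontal axis) and in Ctrl MCM2-2A (vertical axis) for the 34 p53 target genes, with SE bars and the line of equal response. Red points are genes whose responses differed between the lines at the DE thresholds and orange points at the weaker one, of which Epha2 (-2.18 and -0.72), Cdkn1a (0.85 and 1.70), Plk2 and Perp lie farthest above the line.

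The RA response differed between the lines for 6 of 34 genes at the DE thresholds (8.87% of all features) and for 11 at the weaker one (23.9%). Cdkn1a rose in Ctrl MCM2-2A from 46.8, 45.3 and 39.6 CPM at T0 to 130.0, 140.1 and 153 at T60 (log2 fold change 1.70, SE 0.0783, adjusted p = 7.68e-10), which exceeded its rise in Ctrl by 0.82 (95% interval 0.60 to 1.04, adjusted p = 2.09e-05). Plk2 rose from 60.7, 51.2 and 62.3 to 179.8, 219 and 212 in Ctrl MCM2-2A and from 81.8, 63.99 and 68.4 to 125, 130.3 and 107 in Ctrl, a difference of 1.04 (95% interval 0.74 to 1.35, adjusted p = 4.65e-05). Perp rose from 33.7, 37.1 and 33.4 to 62.2, 92.6 and 81.7 in Ctrl MCM2-2A and went from 48.5, 36.2 and 37.3 to 50.5, 44.3 and 39.6 in Ctrl, where the groups overlapped, a difference of 1.05 (95% interval 0.66 to 1.43, adjusted p = 4.41e-04). At T0 the libraries of the lines overlapped in Cdkn1a and Perp and Plk2 was lower in Ctrl MCM2-2A, and at T60 all 3 genes were higher there. Epha2 fell less, from 201, 191 and 201.7 to 115, 127 and 116, a difference of 1.43 (95% interval 1.16 to 1.71, adjusted p = 3.81e-07), and so did Ak1 (103, 89.8 and 84.5 to 61.4, 64.9 and 59.8, difference 0.61, 95% interval 0.39 to 0.83, adjusted p = 4.21e-04). Pidd1 differed by 0.61 (95% interval 0.41 to 0.82, adjusted p = 2.15e-04). Pluripotency markers at T60 summed to 305 to 409 CPM in Ctrl MCM2-2A and 137 to 164 in Ctrl, fibroblast markers to 226 to 251 and 431 to 567, and trophoblast markers to 1136 to 1347 and 729 to 875. Krt8 made up most of the trophoblast sums (means of 1229 and 783 CPM), and Tfap2c was not higher (26.5 and 29.9). In the fibroblast list Thy1 (5.86 and 1.53) and Pdgfra (66.9 and 62.8) were not lower. None of the markers in these lists was at 0 in either group, and their part in these differences was not tested.

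Between dPOLE4 MCM2-2A and Ctrl MCM2-2A no p53 target had a different RA response at either threshold by edgeR or by DESeq2 (0.249% of all features were DE), and 6 of 34 had an unadjusted p below 0.05, against 12.4% of all features. Pmaip1, DE between these groups at T60, differed in its response by 0.36 (95% interval 0.06 to 0.66, adjusted p = 0.278), and Ephx1 by 0.29 (95% interval -0.01 to 0.58, adjusted p = 0.414). The summed level of the 34 genes, dominated by the abundant members, was 2833 ± 88.8 CPM in Ctrl at T0 and 2725 at T60. It was 3251 ± 130 and 3718 in Ctrl MCM2-2A, and 3557 ± 9.81 and 4338 ± 241 in dPOLE4 MCM2-2A (SD, n = 3).

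Other genes of the p53 pathway were followed in 4 lists. In dPOLE4 MCM2-2A against Ctrl MCM2-2A, further p53 targets passed the weaker threshold upwards in 1 of 18 at T0, 3 at T12, 6 at T24 and 6 at T60, and downwards in 0, 0, 1 and 1. Over all features 0.506%, 1.95%, 3.33% and 4.61% passed upwards and 0.325%, 1.75%, 3.29% and 4.69% downwards at these times. The cell cycle inhibitor gene Sfn, which encodes 14-3-3 sigma, was higher by 0.45 (SE 0.0809, adjusted p = 0.0342) at T0, 0.64 (SE 0.0895, adjusted p = 0.00349) at T12, 0.37 (SE 0.0843, adjusted p = 0.0162) at T24 and 0.56 (SE 0.0969, adjusted p = 0.00492) at T60. Abhd4 (log2 fold change 0.49, SE 0.0628, adjusted p = 0.00201) and Tigar, a regulator of glycolysis (log2 fold change 0.34, SE 0.0695, adjusted p = 0.0227), passed at T12, and Dcxr was DE at T24 (log2 fold change 0.71, SE 0.0945, adjusted p = 5.97e-04). The gene that passed downwards at T24 and T60 was Ccnd2, which encodes cyclin D2, at -0.38 (SE 0.0878, adjusted p = 0.0195) and -0.27 (SE 0.0770, adjusted p = 0.0466). It was also lower in dPOLE4 against Ctrl at T60 (log2 fold change -0.46, SE 0.0736, adjusted p = 0.00528).

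Among 20 regulators of p53, its relative Trp73 was the one that passed at T0 (log2 fold change 0.54, SE 0.0945, adjusted p = 0.0296) and was DE at T12 (log2 fold change 0.79, SE 0.104, adjusted p = 0.00244). At T60 Trp73 was higher again (log2 fold change 0.77, SE 0.176, adjusted p = 0.0188), while Hipk2, a kinase of p53 (log2 fold change -0.45, SE 0.0754, adjusted p = 0.00399), and Cdkn2a, whose ARF product restrains MDM2 (log2 fold change -0.46, SE 0.0889, adjusted p = 0.00817), were lower. None of 12 mitochondrial apoptosis genes passed at T0, T24, T60 or 96 h, and Mcl1 passed downwards at T12 (log2 fold change -0.20, SE 0.0509, adjusted p = 0.0499). Of 12 cell cycle genes lowered through p21, Plk1, the mitotic polo-like kinase, passed downwards at T12 (log2 fold change -0.28, SE 0.0603, adjusted p = 0.0294) and T24 (log2 fold change -0.30, SE 0.0574, adjusted p = 0.00676), and no other passed at T0, T12, T24 or T60. Under RA at T60 in Ctrl, 5 of the 18 further targets were DE and higher and 5 lower, near the shares of all features (26.9% and 23.8%). Among them were Tigar (log2 fold change -1.46, SE 0.0678, adjusted p = 5.94e-11) and Sfn (log2 fold change -1.74, SE 0.0971, adjusted p = 4.56e-10), which fell.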

How the data were processed

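RNA was depleted of rRNA and sequenced as strand-specific libraries from 60 samples in 20 groups of 3, named by replicate number in the labels. According to the deposited records the authors trimmed reads with cutadapt 4.2, mapped them to mm10 with STAR, counted them per gene and per repeat subfamily with TEcount, and tested with DESeq2. The authors deposited raw counts, 1 table per experiment, and the strand setting of the counting is not given in the sources used here. Cdkn1a, Ei24, Plk3, Polk, Rrm2b, Ddb2 and Apaf1 overlap a gene on the opposite strand, so that reads of the partners may not be separable.

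Gene symbols came from the GENCODE annotation of GRCm38. Features with too few counts were dropped by filterByExpr, with 10 and 15 as its minimum and total, and the rest scaled by TMM and tested with edgeR 4.0.16 (quasi-likelihood, R 4.3.3) within the groups compared. Each fit used every feature, and Benjamini-Hochberg adjustment ran over all features tested. CPM values were computed from the counts and TMM library sizes, and TMM factors ran from 0.911 to 1.07. The depth limits low genes: Fas had 937 reads over all libraries. Confidence intervals are at 95% and not adjusted. Alternatives were DESeq2 1.42.0, its size factors in edgeR, no filter, the replicate number as a block, more groups in the fit, no genes of chromosomes 11, 14 and 15, and leaving out each library. Scripts were tested on simulated counts. The numbers were taken to pair libraries where every same-numbered pair correlated above 0.1, which held in 6 of 21 comparisons (dPOLE4 against Ctrl at T0, T24 and 96 h, dPOLE4 MCM2-2A against Ctrl MCM2-2A at T0 and 96 h, and the lines at 96 h), with mean correlations of -0.162 to 0.337 over the 21. By the study's methods the triplicates are biological replicates. The protocol text names collection times that differ from the titles (T24, T48, T60 against T12, T24, T60), and the titles were used.

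The 34 genes and all lists were chosen with earlier results of these data known. Of the 34, all but Eda2r and Triap1 were named in the text above. Values in every library were given for Trp53, Mdm2, Cdkn1a, genes DE in a depletion comparison, and the 6 DE genes of largest change at T0 (lines) or T60 (RA).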

Additional observations from a re-analysis of the deposited data

Results flagged for a closer look

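For 11 genes the log2 change from T0 to T60 of RA differed between Ctrl MCM2-2A and Ctrl by a test of the difference itself (edgeR quasi-likelihood, adjusted p below 0.05 over all features), which 23.9% of all features also did. Epha2 had a difference of 1.43 (adjusted p = 3.81e-07), Perp of 1.05 (adjusted p = 4.41e-04), Plk2 of 1.04 (adjusted p = 4.65e-05) and Cdkn1a of 0.817 (adjusted p = 2.09e-05). Pidd1 had 0.613 (adjusted p = 2.15e-04), Ak1 0.608 (adjusted p = 4.21e-04), Apaf1 0.546 (adjusted p = 0.00117) and Polk 0.411 (adjusted p = 0.0306). Ccng1 had 0.345 (adjusted p = 0.0389) and Aen 0.279 (adjusted p = 0.0274). Ei24 alone differed the other way, by -0.365 (adjusted p = 0.0106).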

How the results depend on the processing

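Most calls kept their side of the thresholds. The number of DE genes was the same or within 1.5 times under DESeq2, its size factors, no filter, more groups in the fit and the removal of chromosomes 11, 14 and 15, with these exceptions for dPOLE4 MCM2-2A against Ctrl MCM2-2A. At 96 h the count was 1 in place of 0 under DESeq2, without a filter and with the replicate block. At T12 it was 1 in place of 3 with the replicate block, where the numbers did not pair the libraries. Leaving out 1 library gave 0 to 1 at T0, 1 to 3 at T12, 1 to 1 at T24 and 0 to 3 at T60, and in RA T12 against T0 of Ctrl 3 to 5. The calls lost at T0, T12 and T60 rest on the libraries named above, and 5 genes in RA were reached without replicate 2 of Ctrl T0 or replicate 1 or 2 of Ctrl T12, with Cdkn1a among them. At the weaker threshold the block moved the count in dPOLE4 MCM2-2A from 5 to 18 at T0, 12 to 4 at T12, 9 to 15 at T24 and 8 to 12 at T60, and from 0 to 8 at 96 h, and in dPOLE4 from 1 to 3 at T60. DESeq2 gave 9 at T0 and 11 at T60. The replicate block changed no other count of DE genes. For the difference of the depletion effects, DESeq2 gave 1 gene at T12, 1 at T24 and 1 at T60, and the block 2 at T24, at the weaker threshold. For the RA response of dPOLE4 MCM2-2A minus Ctrl MCM2-2A the block gave 1.

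Single values near 0 changed sign without a call. Over the libraries left out, Trp53 in dPOLE4 against Ctrl at 96 h ran from -0.063 to 0.0097, Mdm2 in dPOLE4 MCM2-2A against Ctrl MCM2-2A at 96 h from -0.0091 to 0.29, Cdkn1a between the lines at T0 from -0.12 to 0.022, Mdm2 between the lines at T12 from -0.015 to 0.040 (-0.0083 with no filter), and Mdm2 in the difference of the depletion effects at 96 h from -0.21 to 0.085. The cause was not tested in any of these. The list's median at 96 h ran from -0.01 to 0.15 in dPOLE4 against Ctrl and from 0.01 to 0.17 in dPOLE4 MCM2-2A against Ctrl MCM2-2A, and in dPOLE4 against Ctrl from 0.01 to 0.096 at T0 and 0.0496 to 0.13 at T24. Counts of few reads limit Fas and Gdf15.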
